A study of Sus scrofa with 12 samples.

Results

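The genes described here are the transcription factor NRF2 (gene symbol NFE2L2), a set of its target genes and the core antioxidant enzymes, measured by RNA-seq in the liver of Jinhua (JH) and Landrace (LD) pigs. They were chosen by function from a list of 10 gene symbols: NFE2L2, NQO1, GCLC, GCLM, TXNRD1, SRXN1, SOD1, SOD2, CAT and GPX1. Of these, 9 were found by symbol among the 31694 genes listed in the mRNA tables. The symbol SRXN1 was absent, and its RefSeq gene ID is listed as LOC100517736, so SRXN1 is described under that ID and is left out of the counts of members. The tables give gene symbols and no coordinates.

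Liver was taken from 3 JH and 3 LD pigs at 70 days of age, with 1 mRNA library per pig. All 6 pigs were uncastrated males with no treatment named in the labels, and the breed is the difference between the groups. JH is a slow growing Chinese breed with high fat deposition, and LD is a fast growing lean breed. Expression was deposited as RPKM, the reads of a gene scaled to the length of the gene and to the reads of the library. A comparison between genes on this scale depends on how each gene was annotated. Comparing pigs depends also on the make-up of each library, such as its share of ribosomal RNA.

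NRF2 is held in the cytoplasm by KEAP1, which has it degraded, and reactive compounds that modify KEAP1 let NRF2 enter the nucleus and activate genes that carry antioxidant response elements. Its targets include both subunits of the enzyme that starts glutathione synthesis, thioredoxin reductase, sulfiredoxin and the quinone reductase NQO1. The core enzymes work in sequence: superoxide dismutases turn superoxide into hydrogen peroxide, and catalase and the glutathione peroxidases remove it. The liver is rich in catalase, which sits in peroxisomes beside oxidases that make hydrogen peroxide.

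The RPKM values were divided by between 5744908 and 7914515 reads per library, totals that were recovered from the values themselves, and every gene described as a member rests on at least 74 recovered reads in each library. The libraries JH3 and LD3 stood apart in their ribosomal RNA. The RPKM of the 18S gene RN18S was 62257 in JH3 and 20160 in LD3, against 1570 to 7309 in the other 4 libraries, and the median log2 level of the tested genes was 2.10 in both, against 2.35 to 2.42. Hepatocyte markers summed to between 61447 and 89996 RPKM in all 6 libraries, and APOB was listed at 0 throughout.

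The 10 genes fell into 2 ranges of abundance. Catalase (CAT), SOD1 and GPX1 had means over the 6 libraries of 1929, 975 and 719 RPKM, and CAT ranked 35 in mean level among 12993 tested genes. The means of the other 7 genes lay between 3.998 RPKM for SRXN1 and 40.5 RPKM for GCLC. GPX1, the lowest of the abundant genes, was above GCLC, the highest of the rest, in 6 of 6 libraries. Within the lower range the order was GCLC, SOD2, NFE2L2, TXNRD1, NQO1, GCLM and SRXN1.

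Several neighbours in this order could not be told apart by level. CAT was above SOD1 in 3 of 3 LD libraries and in 0 of 3 JH libraries, so the highest RPKM of these genes was that of CAT in LD and of SOD1 in JH. The order in JH depends on the gene lengths. In recovered reads CAT was above SOD1 in JH1, JH2 and JH3, at 17583, 20266 and 14428 against 8060, 8444 and 6957. On the RPKM scale GCLC was above SOD2 in 3 of 3 LD libraries and in 0 of 3 JH libraries. SOD2 was above NFE2L2, and GCLM above SRXN1, in 6 of 6 libraries. TXNRD1 was above NQO1 in 4 of 6 and NQO1 above GCLM in 4 of 6, since NQO1 varied more between pigs than the genes around it.

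**Figure D1:**
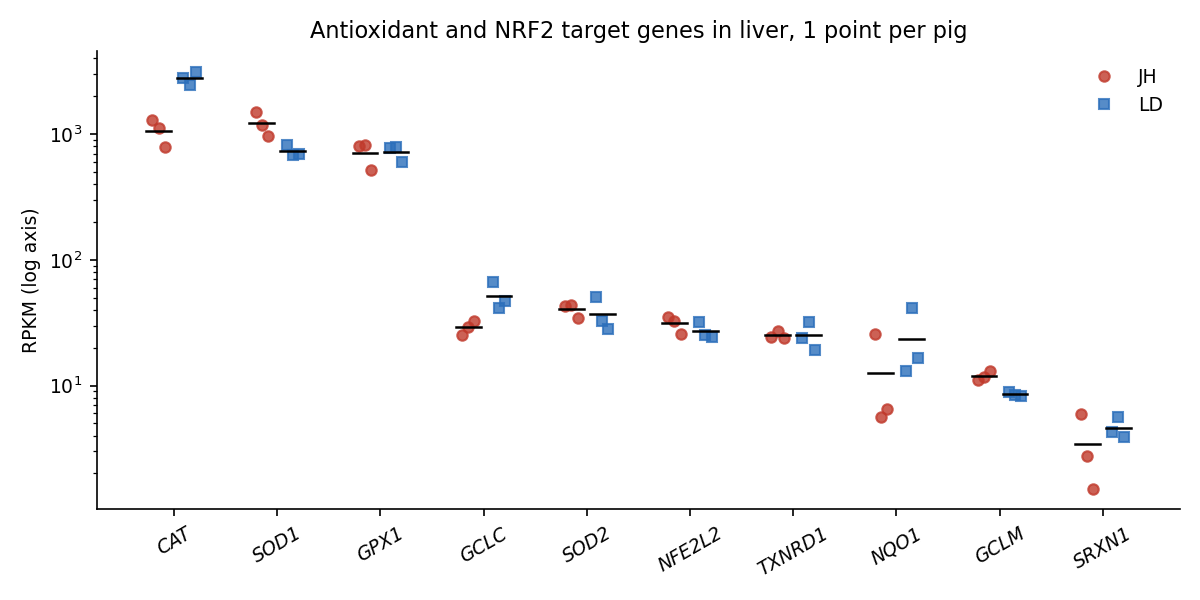
RPKM on a log axis of the 9 members and SRXN1 in the liver of 3 JH (circles) and 3 LD (squares) pigs, with genes ordered by mean level and a black line at each breed mean. CAT, SOD1, GCLC and GCLM are the genes in which the JH and LD points do not overlap, and NQO1 has the widest spread within a breed.

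The question put to these genes was whether the breeds differ in them. Breeds were compared with limma on log2(RPKM + 0.1), and a gene was called when its p, adjusted over all tested genes by the Benjamini-Hochberg method, was under 0.05 and the log2 fold change of JH against LD (log2FC) was beyond 1 in either direction. Of the 9 members 1 was called, CAT, which was lower in JH. Among all 12993 tested genes 2.39% were called in either direction and 1.36% were called lower in JH. The JH and LD values did not overlap in 4 of the 9 members, CAT, SOD1, GCLC and GCLM, against 23.4% of all tested genes. An unadjusted p under 0.05 was reached by 3 members, CAT, GCLC and SOD1, against 17.9% of all genes. Their median log2FC was 0.04, which is also the median of all tested genes, and 5 of the 9 were above 0.

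**Figure D2:**
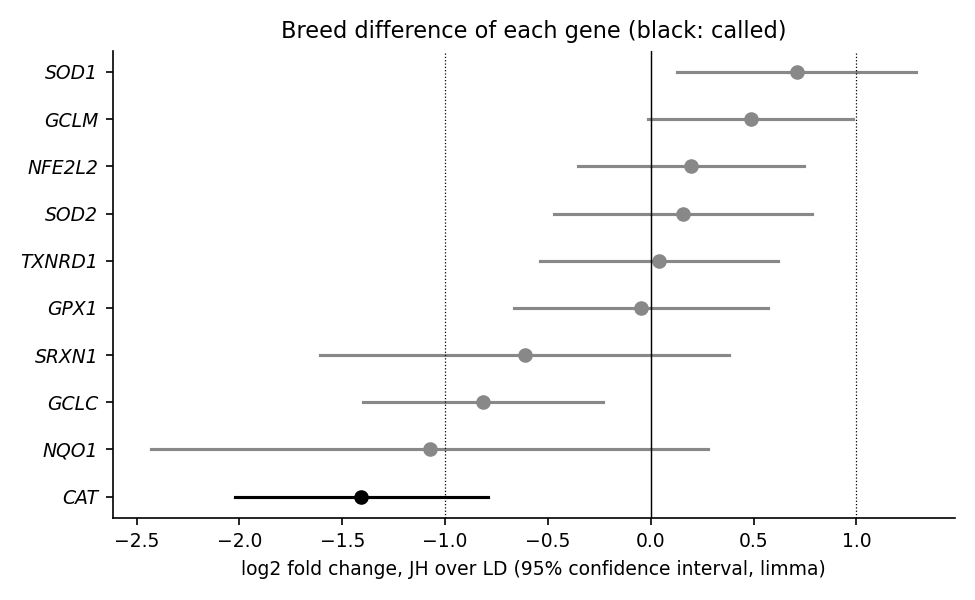
Log2FC of JH against LD with its 95% confidence interval from limma for the 9 members and SRXN1, where dotted lines mark the fold change limit. CAT at -1.41 is the called gene (black), the intervals of GCLC and SOD1 leave out 0 on opposite sides, and that of NQO1 is the widest.

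CAT encodes catalase, the peroxisomal enzyme that splits hydrogen peroxide into water and oxygen. Its level was 1301, 1110 and 793 RPKM in JH1, JH2 and JH3. In LD1, LD2 and LD3 it was 2778, 2450 and 3144 RPKM. The highest JH pig was therefore far below the lowest LD pig. The means were 1068 ± 257 RPKM for JH against 2791 ± 347 RPKM for LD (SD, n = 3 each), and CAT took up 0.251% ± 0.060 (SD, n = 3) of the reads in JH and 0.657% ± 0.082 (SD, n = 3) in LD. CAT fell in JH (log2FC -1.41, SE 0.27, 95% confidence interval -2.02 to -0.79, limma adjusted p = 0.0369), so LD held 2.65 times the level of JH. In bulk liver, fewer cells of a type and less RNA per cell cannot be told apart.

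The size of the catalase difference held better than its call. The log2FC lay between -1.58 and -1.12 in every fit that was run. The adjusted p from limma rose above the threshold to 0.0861 without JH replicate 2, 0.137 without LD replicate 1, 0.0992 without LD replicate 2 and 0.14 without LD replicate 3, and to 0.142 with JH3 and LD3 both left out. It was 0.0571 with the replicate number as a block and 0.127 with no filter on low values. Of the 15 alternatives, 8 kept the adjusted p below 0.05, among them voom on recovered reads (adjusted p = 0.0144) and quantile normalization (adjusted p = 0.00867).

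Red blood cells also carry much catalase, and red cell markers were also at lower values in JH. The globin gene HBB was at 102 ± 15.3 RPKM for JH against 276 ± 98.1 RPKM for LD (SD, n = 3 each) and fell in JH (log2FC -1.39, limma adjusted p = 0.0459). Of 10 red cell markers 6 were in the files and 3 were tested, and all 3 had a log2FC below 0. Their summed level was 92.3 to 124 RPKM in JH and 216 to 398 RPKM in LD. CAT was between 6.66 and 13.7 times the level of HBB in each library. The part of red cells in the catalase difference was not tested.

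Glutamate-cysteine ligase, which makes the first and rate-limiting bond of glutathione, is built of a catalytic subunit (GCLC) and a modifier subunit (GCLM), both textbook NRF2 targets. GCLC was at 25.3, 29.2 and 32.6 RPKM in the 3 JH pigs. It was at 66.6, 41.7 and 47.4 RPKM in the 3 LD pigs. All LD values were above all JH values, with means of 29.0 ± 3.64 RPKM for JH against 51.9 ± 13.1 RPKM for LD (SD, n = 3 each). Its log2FC was -0.81 (SE 0.26, 95% confidence interval -1.40 to -0.23) and missed the threshold with a limma adjusted p of 0.148.

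GCLM lay the other way round. Its level was 11.2, 11.6 and 13.1 RPKM in JH and 8.80, 8.39 and 8.32 RPKM in LD, and the lowest JH value was above the highest LD value. The means were 11.97 ± 1.02 RPKM for JH against 8.504 ± 0.259 RPKM for LD (SD, n = 3 each), the tightest LD values of any member. Its log2FC was 0.49 (SE 0.22, 95% confidence interval -0.01 to 0.98) and missed the threshold with a limma adjusted p of 0.292. JH3, which had the most ribosomal RNA, had the highest JH values of both subunits.

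A ratio within a library is free of the library's scaling, and 4 such ratios were formed after the values had been seen, so they are given as a description with no test. GCLC and GCLM, and likewise CAT and SOD1, were paired when each was known to separate the breeds in opposite directions, which fixes that their ratios separate them too. The GCLC to GCLM ratio was 2.27, 2.51 and 2.49 in the JH pigs and 7.57, 4.97 and 5.70 in the LD pigs. The JH values lay within a narrow band and every LD value was above it, with means of 2.42 ± 0.13 (SD, n = 3) and 6.08 ± 1.34 (SD, n = 3). The ratio was 2.47 times as high in LD.

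SOD1 encodes the copper and zinc superoxide dismutase of the cytosol and SOD2 the manganese enzyme of mitochondria. SOD1 was at 1510, 1172 and 968 RPKM in JH and 823, 684 and 695 RPKM in LD. Every JH value was above every LD value, and JH1 stood highest. The means were 1217 ± 274 RPKM for JH against 734 ± 76.8 RPKM for LD (SD, n = 3 each). Its log2FC was 0.71 (SE 0.26, 95% confidence interval 0.13 to 1.29) and missed the threshold with a limma adjusted p of 0.194.

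SOD2 was at 42.6, 43.8 and 34.5 RPKM in JH and 50.6, 32.4 and 28.3 RPKM in LD. The highest and the lowest of these 6 values were both LD pigs, so the JH range lay inside the LD range. For SOD2 the log2FC was 0.16 with a 95% confidence interval of -0.47 to 0.78. The ratio of SOD1 to SOD2 was 30.1 ± 4.71 for JH against 20.6 ± 4.18 for LD (SD, n = 3 each) without overlap.

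CAT and SOD1 act one after the other on the path from superoxide to water, and their transcripts lay on opposite sides of the breed comparison. The ratio of CAT to SOD1 was 0.861, 0.948 and 0.819 in JH1, JH2 and JH3. It was 3.38, 3.58 and 4.52 in LD1, LD2 and LD3. The ratio was below 1 in each JH pig and above 3 in each LD pig, and 4.34 times as high in LD. JH1, JH2 and JH3 differed by 1.64 times in CAT from highest to lowest and by 1.56 times in SOD1, but their ratios had an SD of 0.0656 around a mean of 0.876.

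**Figure D3:**
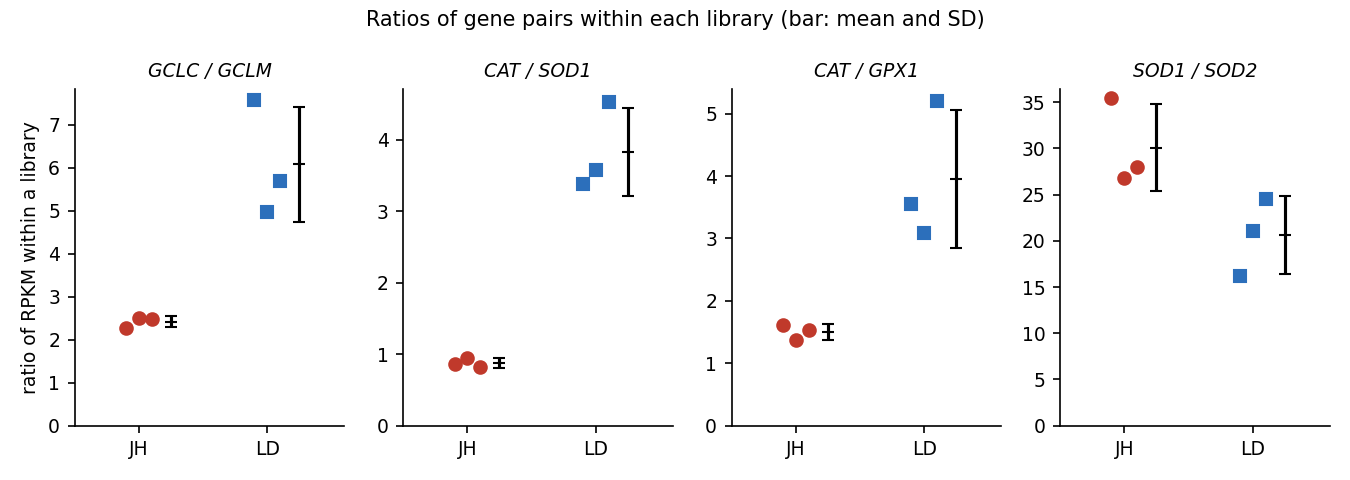
Ratios of RPKM within each library for GCLC to GCLM, CAT to SOD1, CAT to GPX1 and SOD1 to SOD2, with 1 point per pig and the mean and SD (n = 3) beside the points, each axis starting at 0. JH (circles) and LD (squares) do not overlap in any of the 4 ratios, and the JH points of the first 3 ratios lie close together.

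GPX1, the cytosolic selenium enzyme that removes hydrogen peroxide with glutathione, was nearly level. It was at 807, 812 and 517 RPKM in JH and 782, 792 and 604 RPKM in LD. The lowest value of each breed was that of JH3 and LD3, the libraries with the most ribosomal RNA. For GPX1 the log2FC was -0.05 with a 95% confidence interval of -0.66 to 0.57, so a difference of up to 1.58 times higher in LD or 1.48 times higher in JH lies within the interval. The ratio of CAT to GPX1 was 1.504 ± 0.125 for JH against 3.95 ± 1.11 for LD (SD, n = 3 each), 2.57 times as high in LD.

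TXNRD1 encodes the cytosolic thioredoxin reductase, another selenium enzyme and NRF2 target. It was at 24.5, 27.3 and 23.9 RPKM in JH and 23.7, 32.1 and 19.3 RPKM in LD, with the JH values inside the LD range. Between the breeds its log2FC was 0.04 with a 95% confidence interval of -0.54 to 0.62 (limma adjusted p = 0.954).

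NFE2L2, the gene of NRF2 itself, was at 35.3, 32.8 and 25.8 RPKM in JH and 32.2, 25.4 and 24.3 RPKM in LD. The breeds overlapped over most of their range, and JH3 and LD3 were the lowest of their breeds. NFE2L2 had a log2FC of 0.19 with a 95% confidence interval of -0.36 to 0.74 (limma adjusted p = 0.724). NRF2 is controlled mainly as a protein, so its transcript level is not a measure of its activity. Among 11256 other tested genes with a mean RPKM of at least 1, the profiles closest to that of NFE2L2 over the 6 libraries were those of CCBL2, UQCR10 and PRKCI, with a root mean square difference of the centred log2 levels of 0.041, 0.041 and 0.047, against a median of 0.37. RefSeq places genes on assembly Sscrofa11.1, which is later than the build of the files, and there the extent of NFE2L2 overlaps those of HNRNPA3 and AGPS and that of SOD1 overlaps SCAF4, and whether the counting used strand is not stated in the sources used here.

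NQO1, a quinone reductase that is widely used as a readout of NRF2, was the most variable member. It was at 25.6, 5.62 and 6.48 RPKM in JH and 13.04, 41.1 and 16.6 RPKM in LD. JH1 was above 2 of the 3 LD pigs, and the difference between JH1 and JH2 was 4.54 times. The means of 12.6 ± 11.3 RPKM for JH against 23.6 ± 15.3 RPKM for LD (SD, n = 3 each) differed by less than the SD of either breed. The log2FC of -1.08 had a 95% confidence interval of -2.43 to 0.28 (limma adjusted p = 0.389), and it ranged from -1.76 without JH replicate 1 to -0.58 without LD replicate 2.

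SRXN1 encodes sulfiredoxin, which repairs overoxidized peroxiredoxins. Under LOC100517736 it was at 5.92, 2.77 and 1.52 RPKM in JH and 4.24, 5.64 and 3.90 RPKM in LD, and it rested on 30 to 114 reads per library. JH1 was the highest and JH3 the lowest of all 6 pigs. SRXN1 had a log2FC of -0.61 with a 95% confidence interval of -1.61 to 0.38 (limma adjusted p = 0.508), and it ranged from -1.11 without JH replicate 1 to -0.16 without JH replicate 3. JH1 had the highest JH value and LD2 the highest LD value in both NQO1 and SRXN1.

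Individual pigs differed across the 10 genes as well. JH1 was the highest of its breed in 5 genes, NFE2L2, NQO1, SOD1, CAT and SRXN1, and the lowest in GCLC and GCLM. JH3 was the lowest of its breed in 7 genes and LD3 in 6. After each library was shifted to the same median, JH1 was the highest in 7 genes, JH3 the lowest in 5 and LD3 in 2. The standing of LD3 therefore changed with the scaling.

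The rest of the antioxidant system was followed in 8 lists of 118 genes in all, of which 97 were in the files and 78 were tested. Of the 78 genes 3 were called, PRDX6 and GLRX5 lower in JH and GLRX higher in JH, against 2.39% of all tested genes called (1.36% lower and 1.02% higher in JH), and the median log2FC of the 78 was -0.04. Peroxidases, peroxiredoxins and thioredoxins had 17 tested genes, of which 1 was called lower and 0 higher, with a median log2FC of 0.01. Genes of glutathione synthesis and recycling had 11 tested genes, of which 1 was called higher and 1 lower, with a median of 0.48. In the other 6 lists no gene was called by limma with Benjamini-Hochberg adjustment, and 7 of their genes had an unadjusted p under 0.05, a level that 17.9% of all tested genes reached.

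PRDX6 encodes peroxiredoxin 6, which reduces hydrogen peroxide and lipid peroxides. It was at 91.2, 84.0 and 67.3 RPKM in JH and 222, 163 and 216 RPKM in LD. The breeds lay far apart, and PRDX6 fell in JH (log2FC -1.30, SE 0.25, limma adjusted p = 0.0345). Its profile over the 6 libraries was the closest to that of CAT among the 11256 other genes compared, with a root mean square difference of 0.13 on the log2 scale against a median of 0.84, followed by LOC100623096 with 0.17 and NYNRIN with 0.19. With 1 library left out the log2FC stayed between -1.45 and -1.18, and PRDX6 was called without JH replicate 3 (adjusted p = 0.0435). It was not called without any of JH replicate 1, JH replicate 2, LD replicate 1, LD replicate 2 and LD replicate 3, where the adjusted p was 0.0595, 0.0916, 0.142, 0.0742 and 0.117.

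GLRX and GLRX5 are glutaredoxins, small enzymes that use glutathione. GLRX, the cytosolic one, was at 128, 154 and 110 RPKM in JH and 58.5, 51.3 and 58.0 RPKM in LD, and it rose in JH (log2FC 1.21, SE 0.23, limma adjusted p = 0.0369). GLRX5, the mitochondrial one that serves iron-sulfur cluster assembly and is needed for heme synthesis in red cells, was at 80.7, 89.4 and 68.1 RPKM in JH and 208, 250 and 144 RPKM in LD, and it fell in JH (log2FC -1.31, SE 0.27, limma adjusted p = 0.0446). The groups did not overlap in either gene, and their directions were opposite. With 1 library left out GLRX was called without JH replicate 3, with an adjusted p of 0.0266 there and of 0.0893, 0.119, 0.129, 0.145 and 0.109 without JH replicate 1, JH replicate 2, LD replicate 1, LD replicate 2 and LD replicate 3. GLRX5 was called in 0 of these 6 fits, with an adjusted p of 0.0532 to 0.168, and its log2FC stayed between -1.53 and -1.13. Its call was also lost with a pseudocount of 0.01 (adjusted p = 0.0546) and with no filter on low values (adjusted p = 0.0621).

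**Figure D4:**
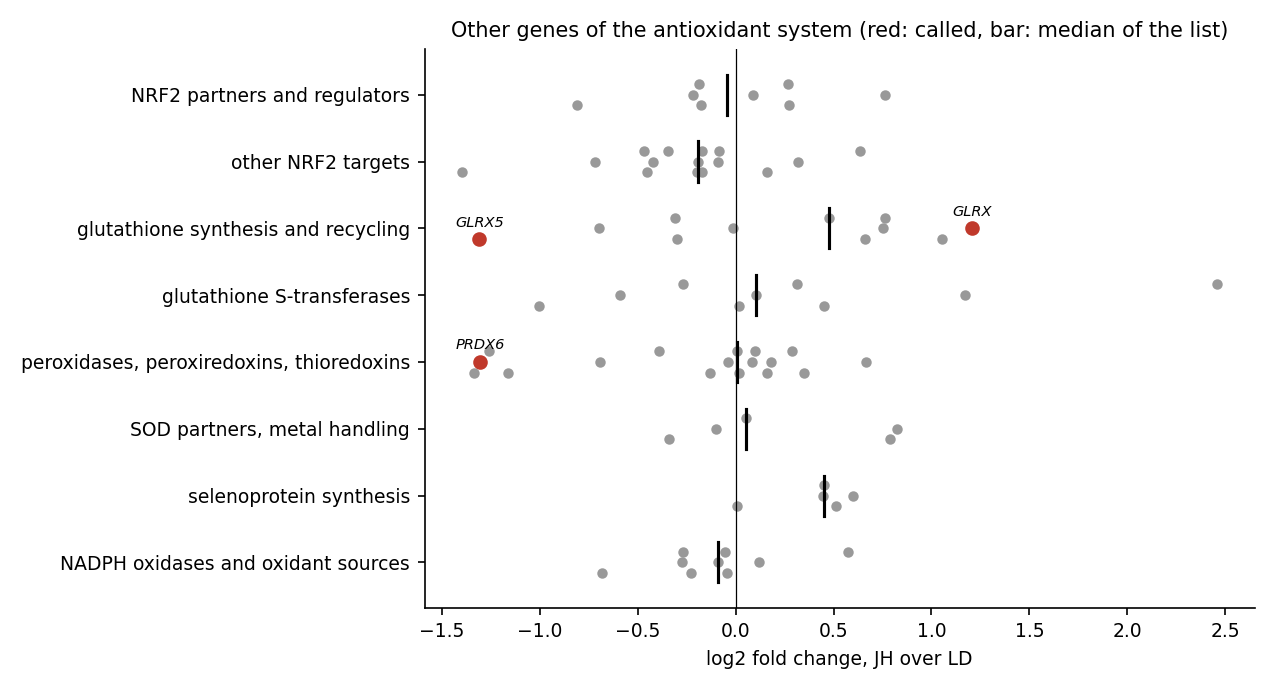
Log2FC of JH against LD for the tested genes in 8 lists of the antioxidant system, with 1 point per gene and a bar at the median of each list. The called genes (red) are GLRX5 and PRDX6 on the left and GLRX on the right, and the point farthest to the right, GSTO2 at 2.46, was not called.

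Among the partners of the superoxide dismutases 0 of 5 tested genes were called. CCS, the chaperone that loads copper into SOD1, was at 95.9 ± 14.2 RPKM for JH against 55.7 ± 10.203 RPKM for LD (SD, n = 3 each), with a log2FC of 0.79 (limma adjusted p = 0.143). That value stands beside 0.71 for SOD1. ATOX1, another copper chaperone, had a log2FC of 0.82 (adjusted p = 0.33) with overlapping values.

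Of the regulators of NRF2, 0 of 8 tested genes were called. KEAP1 did not reach the filter, with 0 to 0.575 RPKM in the 6 libraries. As APOB was listed at 0 in the same libraries, nothing is read from values this low. BACH1, a repressor that competes with NRF2 at its response elements, was at 1.54 ± 0.29 RPKM for JH against 2.77 ± 0.56 RPKM for LD (SD, n = 3 each), with a log2FC of -0.81 (adjusted p = 0.196). MAFF, a small MAF protein of the kind NRF2 pairs with, had a log2FC of 0.76 (adjusted p = 0.35).

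Among the other NRF2 targets 0 of 15 tested genes were called. Of the 15, 3 had a log2FC above 0, and the median was -0.19 against 0.04 over all tested genes. The share of all genes above 0 was not counted. An unadjusted limma p under 0.05 was reached by 2 of the 15, against 17.9% of all tested genes. ME1, the cytosolic malic enzyme that makes NADPH, was at 0.806 ± 0.565 RPKM for JH against 2.11 ± 0.92 RPKM for LD (SD, n = 3 each) (log2FC -1.39, adjusted p = 0.228). The export pump ABCC3 was at 7.78 ± 1.46 RPKM for JH against 12.9 ± 2.56 RPKM for LD (SD, n = 3 each) without overlap (log2FC -0.72, adjusted p = 0.192). HMOX1, SLC7A11, AKR1A1 and CBR1 were listed at 0 in all 6 libraries. Since APOB, which every hepatocyte uses, is also listed at 0, nothing can be read from these zeros.

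The glutathione S-transferases had 9 tested genes and 0 calls. GSTO1, an omega class enzyme that reduces with glutathione, was at 1768, 1343 and 1109 RPKM in JH and 896, 529 and 484 RPKM in LD, and the groups did not overlap (log2FC 1.17, SE 0.31, adjusted p = 0.0963). GSTO2 was low, with 1.39 ± 0.45 RPKM for JH against 0.248 ± 0.293 RPKM for LD (SD, n = 3 each) (log2FC 2.46, adjusted p = 0.117). LD2 was listed at 0 for GSTO2, so this fold change depends on the pseudocount.

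GPX3, the plasma glutathione peroxidase, was at 43.1 ± 28.3 RPKM for JH against 98.4 ± 35.1 RPKM for LD (SD, n = 3 each) with overlapping values (log2FC -1.34, adjusted p = 0.174). In the selenoprotein list 5 of 5 tested genes had a log2FC above 0, the smallest at 0.006, and 0 were called. The median of this list was 0.45 against 0.04 over all tested genes, and the share of all genes above 0 was not counted. SEPP1, the liver's selenium carrier for the blood, was at 4009 ± 360 RPKM for JH against 2675 ± 505 RPKM for LD (SD, n = 3 each) without overlap (log2FC 0.60, adjusted p = 0.27). SEPHS2, which makes the selenium donor for these proteins, had a log2FC of 0.51 (adjusted p = 0.282).

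Among the sources of oxidants 0 of 9 tested genes were called. NOX1 had a log2FC of 0.57 (adjusted p = 0.458).

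Markers of other liver cells differed between the breeds too, and their part in the values above was not tested. All 10 stellate cell and fibroblast markers were tested and 4 were called, each lower in JH, with a summed level of 80.9 to 102 RPKM in JH and 197 to 393 RPKM in LD. Of 5 tested bile duct markers 2 were called lower in JH, with a summed level of 19.2 to 28.4 RPKM in JH and 39.3 to 66.3 RPKM in LD, and CDH1 was listed at 0. Among all tested genes 2.39% were called in either direction and 1.36% were called lower in JH. Macrophage, lymphocyte, endothelial and hepatocyte lists had 0 calls each, which says little for lists this short. Their summed levels overlapped between the breeds for macrophages (517 to 1151 RPKM in JH, 896 to 1061 RPKM in LD), lymphocytes (26.2 to 88.4 and 35.5 to 50.5 RPKM) and endothelial cells (191 to 321 and 244 to 311 RPKM). Such sums follow the most abundant genes of a list. Of 7 tested macrophage genes 3 had a log2FC above 0. Among these were C1QB (log2FC 1.76, adjusted p = 0.234) and CSF1R (log2FC 1.23, adjusted p = 0.251), both with overlapping values. Of 9 tested endothelial genes 1 had a log2FC above 0. PECAM1 (log2FC -0.81, adjusted p = 0.0988), KDR (-0.91, adjusted p = 0.0811) and VWF (-0.66, adjusted p = 0.406) were lower in JH without overlap. Among lymphocyte genes CD4 was lower in JH without overlap (log2FC -1.64, adjusted p = 0.0586), while 6 of 9 tested had a log2FC above 0. Hepatocyte markers summed to 61447 to 73371 RPKM in JH and 75225 to 89996 RPKM in LD, with albumin (ALB) at 29866 ± 3267 (SD, n = 3) and 47923 ± 8861 (SD, n = 3) RPKM (log2FC -0.67, adjusted p = 0.258). Of 9 tested hepatocyte genes 2 had a log2FC above 0. One was APOA1, at 16218 ± 5989 RPKM for JH against 8376 ± 1511 RPKM for LD (SD, n = 3 each) without overlap (log2FC 0.90, adjusted p = 0.203). The other was HNF4A, with a log2FC of 0.22 (adjusted p = 0.682). The largest change in this list was that of TF, lower in JH without overlap (log2FC -1.13, adjusted p = 0.153). The share of all tested genes above 0 was not counted beside these marker counts.

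In the gene order of the Sscrofa11.1 RefSeq annotation, the tested genes on either side of CAT were APIP and ABTB2. Their log2FCs of 0.85 (adjusted p = 0.125) and -0.28 (adjusted p = 0.622) did not pass the threshold. None of the 4 nearest tested genes around any of the 9 members or SRXN1 was called by limma. As 2.39% of all tested genes were called, the absence of calls among so few genes says little.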

How the data were processed

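Per the labels and the methods of the study, 50 bp single reads were filtered, aligned to Sus scrofa 10.2 with Tophat (TopHat2 version 2.0.13 in the submitters' processing notes) and counted per gene with gfold, and the authors deposited RPKM values for 31694 genes in each of the 6 mRNA libraries. The small RNA libraries were not used here. Libraries were grouped by their titles. The members and lists were chosen with earlier results of these data known.

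Breeds were compared on log2(RPKM + 0.1) by limma 3.58.1 in R 4.3.3, using moderated variances that follow the mean level. Genes entered where 3 or more libraries reached an RPKM of 0.5. The log2FC is that of log2(RPKM + 0.1) and so is too small for low genes. The call needed an adjusted p under 0.05 and a log2FC beyond 1 in either direction. On simulated data with 198 of 12724 genes given a log2FC of 2 in size, 188 were called with 5 false calls, and 0 of 12718 were called with no change. A log2FC of 2 is a larger change than those of CAT, PRDX6, GLRX, GLRX5 and HBB. The simulation used the same setting for spread between pigs in every gene and no shift between libraries. It therefore does not give the error rates of these data. Library totals and gene lengths were searched so that RPKM values became whole reads, which resolved 19393 of 19614 genes above 0 (98.9%). Without molecular identifiers, a read number speaks to counting error alone. As the labels name no separate farms or litters, p-values measure the spread between these pigs.

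All members were named, and of each list every called gene and the 2 tested genes with the largest absolute log2 fold change, apart from 1 gene that is not reported here. HBB, the cell type markers, KEAP1, the genes listed at 0, CHAC1 and the neighbouring genes were named after their values had been seen. Alternatives were other pseudocounts (0.01 and 1), no filter, an RPKM of at least 1 in all 6 libraries, quantile normalization, median scaling, the replicate block, voom on recovered reads and each library left out. Leaving out JH3 and LD3 together was added after the values were seen.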

Additional observations from a re-analysis of the deposited data

How the results depend on the processing

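The number of members called went from 1 to 0 with no filter on low values, with the replicate block and with JH3 and LD3 both left out, with or without the fold limit, and was 0 to 1 with 1 library left out. The number of all genes called went from 310 to 199 with a pseudocount of 0.01, 200 with no filter and 101 with JH3 and LD3 both left out, and was 63 to 403 with 1 library left out. Of the other pathway genes 3 were called, 2 with a pseudocount of 0.01 and with no filter, 4 with the replicate block, 0 with JH3 and LD3 both left out and 0 to 3 with 1 library left out. The deviations of same-numbered libraries correlated across genes at -0.02, 0.05 and 0.18, a measure that a shift shared by all genes does not enter. Median log2 levels lay close in same-numbered libraries, at 2.36 in JH1 and 2.35 in LD1, 2.42 in JH2 and 2.39 in LD2, and 2.10 in JH3 and LD3. Whether the replicate numbers mark a shared batch was not tested. With the replicate block 253 genes were called in all. NFE2L2, NQO1, GCLC, GCLM, SOD1 and SRXN1 kept their direction and their side of the threshold under all 15 alternatives, while TXNRD1, SOD2 and GPX1, whose log2 fold changes were near 0, changed sign under some, with ranges of -0.13 to 0.23, -0.02 to 0.40 and -0.25 to 0.17. Of the 10 genes, NQO1 and SRXN1 had the widest intervals. Both genes also differed most between JH pigs, by 4.54 and 3.91 times from highest to lowest, and had the fewest reads (at least 74 and 30 per library).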

Other observations

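CHAC1, which encodes an enzyme that degrades glutathione, was not tested because it reached an RPKM of 0.5 in fewer than 3 libraries, and it was picked out after its values were seen. Its level was 0.411, 3.81 and 11.99 RPKM in JH1, JH2 and JH3. In LD1, LD2 and LD3 it was 0.0832, 0 and 0.0746 RPKM. Every JH value was above every LD value, and JH3 was far above JH1. GSR, the glutathione reductase, was also named after its values were seen, with 10.8 ± 5.25 RPKM for JH against 5.09 ± 2.25 RPKM for LD (SD, n = 3 each) (log2FC 1.052, limma adjusted p = 0.207), and JH1 stood highest with 16.8 RPKM.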
